A study of Mus musculus with 96 samples.

Results

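The glycolysis genes described here are 10 genes: the glucose transporter gene Slc2a1 (GLUT1) and 9 enzyme genes, Hk1, Hk2, Pfkl, Aldoa, Gapdh, Pgk1, Eno1, Pkm and Ldha. They were chosen by gene symbol, with earlier results of these data known. All 10 were found, with 1 row each, among 19836 symbols in the deposited table of read counts. All 10 also passed a minimum of 30 reads over all cells, which 15239 symbols passed. The data are read counts of 96 single cells from C57BL/6 mouse embryos, each cell sorted into its own well and made into cDNA with a SMART-Seq kit. At E11.5, 48 precursors of haematopoietic stem cells (pre-HSCs) came from the aorta-gonad-mesonephros (AGM) and 16 from the yolk sac. Haematopoietic stem cells (HSCs) came from fetal liver, 16 of them at E12.5 and another 16 at E14.5. The surface gate was Ter119-CD11b-CD144+c-kit+EPCR+ for both E11.5 groups, Ter119-Sca-1+c-kit+EPCR+ at E12.5 and Ter119-Sca-1+c-kit+CD48-CD150+ at E14.5. No transgene, deletion or treatment is named for any group. Tissue, age and gate changed together between the E11.5 and liver groups, and age and gate between the 2 liver groups, and cannot be told apart.

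Glycolysis splits glucose into pyruvate in the cytosol. Glucose enters through transporters such as GLUT1, hexokinases trap it as glucose 6-phosphate, and phosphofructokinase makes the committing step. Aldolase cuts the sugar, glyceraldehyde 3-phosphate dehydrogenase, phosphoglycerate kinase, enolase and pyruvate kinase then yield ATP and pyruvate, and lactate dehydrogenase turns pyruvate into lactate. Many of these genes are known targets of the hypoxia-inducible factors (HIFs), which bind short elements with the core ACGTG. Adult bone marrow HSCs are known for relying on glycolysis, and fetal liver HSCs for cycling.

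The promoters of 4 members are shown for that core, because these genes took different courses between the groups. They were chosen after the values were seen. Each sequence is the 250 bases before a RefSeq transcription start on the build GRCm38.p6, written 5′ to 3′ on the gene's strand, with ACGTG and its reverse complement CACGT in capitals. A place where both overlap reads CACGTG and was counted as 1.
Slc2a1, chr4:119108495-119108744, plus strand, 1 place: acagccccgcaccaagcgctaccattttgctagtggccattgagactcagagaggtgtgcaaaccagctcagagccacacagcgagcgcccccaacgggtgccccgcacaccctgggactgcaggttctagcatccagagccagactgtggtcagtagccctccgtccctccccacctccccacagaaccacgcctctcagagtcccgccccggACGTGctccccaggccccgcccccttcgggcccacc
Pfkl, chr10:78009808-78010057, minus strand, 0 places: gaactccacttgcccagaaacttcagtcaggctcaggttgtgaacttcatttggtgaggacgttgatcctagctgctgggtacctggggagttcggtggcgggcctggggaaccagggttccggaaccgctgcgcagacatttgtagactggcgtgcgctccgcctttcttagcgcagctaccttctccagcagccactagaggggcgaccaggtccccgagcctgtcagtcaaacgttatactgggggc
Pgk1, chrX:106186850-106187099, plus strand, 2 places: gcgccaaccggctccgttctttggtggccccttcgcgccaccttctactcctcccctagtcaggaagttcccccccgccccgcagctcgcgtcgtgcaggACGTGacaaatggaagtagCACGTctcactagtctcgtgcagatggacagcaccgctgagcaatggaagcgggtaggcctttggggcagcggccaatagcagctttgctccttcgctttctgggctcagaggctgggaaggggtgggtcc
Ldha, chr7:46845554-46845803, plus strand, 3 places: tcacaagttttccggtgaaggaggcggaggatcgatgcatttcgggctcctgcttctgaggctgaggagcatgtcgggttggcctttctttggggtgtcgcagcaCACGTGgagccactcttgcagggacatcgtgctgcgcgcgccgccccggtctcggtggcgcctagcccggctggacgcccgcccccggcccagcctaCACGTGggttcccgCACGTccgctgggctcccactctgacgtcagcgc
The core stood in the Slc2a1, Pgk1 and Ldha windows and not in that of Pfkl. For Ldha it stood in the first of 2 annotated promoters, where 2 of the 3 places were CACGTG, a sequence that other factors also bind. In all, 7 of the 17 annotated promoters of the members held the core (41.2%), against 5444 of 32851 promoters of all genes (16.6%). Among those 7 are 2 overlapping Aldoa promoters that hold the same place. By gene, 6 of the 10 members had it in any promoter, which were Slc2a1, Hk2, Aldoa, Pgk1, Pkm and Ldha. That is 60.0%, beside 24.6% of the 10979 genes with at least 30 reads that have a promoter entry. Of all promoters, 1.93% had the core in at least 2 places and 0.244% in at least 3. These matches are descriptions of sequence, not of binding.

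Each cell was its own library, and no 2 of the 96 columns were identical. Cells had between 250235 and 1926882 reads, and group medians lay between 1164180 and 1446150. Reads of a group were summed and scaled to a total of 1000000 per group or per cell (CPM). No animal or litter is named in the labels, and each group is therefore 1 sample: differences have no replicate check, and no test or p-value is given. A difference is called only where it reached 2-fold, as a log2 ratio of pooled CPM with 1 CPM added to each value. Intervals are exact 95% intervals for counting error alone: PCR reads that carry no molecular identifier are not independent molecules.

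Several cells stood apart from their group's labels. Fetal liver cell 8 at E12.5 had 1011 genes with a read, 26991 CPM summed over 9 macrophage markers and no read of the 12 haematopoietic markers. At E14.5, cells 3, 8, 13 and 16 had 14.9%, 12.9%, 4.42% and 23.1% of their reads in globin genes, although the gate was negative for the erythroid antigen Ter119. E12.5 cell 8 had 1.05% globin reads, and it and these 4 cells were the only ones over 1%. They are called the 5 globin-rich cells below, although E12.5 cell 8 had a higher sum of macrophage markers than of the 16 erythroid markers (11797 CPM). Not all macrophage markers were raised in it: Adgre1 had no read at E12.5, and Cd68 was at 56.9 CPM there with cell 8 and 57.7 CPM without it. Results are also given without them where that matters. Between E12.5 liver and AGM cells this leaves out E12.5 cell 8 alone. In AGM cell 3 the 14 endothelial markers summed to 12740 CPM, the highest of the 48 AGM cells, whose median was 1745 CPM. AGM cell 37 had the highest macrophage sum of that group, 6526 CPM against a median of 513 CPM, although the gate was CD11b-negative. Haematopoietic markers had reads in the pooled cells of each group, 12 of 12 in all 4 groups, and summed to between 1303 and 1777 CPM.

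The 10 genes together took 1.47% of all reads in AGM cells, 1.83% in yolk sac cells, 2.04% in liver cells of E12.5 and 1.72% in those of E14.5. In single AGM cells their summed level ran from 3990 CPM in cell 3 over a median of 14366 CPM to 21972 CPM. Yolk sac cells ran from 9985 CPM over a median of 17815 CPM to 26621 CPM. The E12.5 liver cells ran from 6904 CPM over a median of 17052 CPM to 45611 CPM in cell 13. The E14.5 liver cells ran from 5490 CPM over a median of 15247 CPM to 28820 CPM. The groups therefore overlapped widely, and 13 of 16 yolk sac cells but 10 of 16 E12.5 liver cells lay above the AGM median. With all cells counted, the spread between cells was widest in the liver, with a coefficient of variation of 0.53 (E12.5) and 0.45 (E14.5), against 0.28 in AGM and 0.26 in yolk sac cells. This spread was not calculated without the globin-rich cells, which had low sums at E14.5. Lowest among the E14.5 cells were the globin-rich cells 16 and 8, with 5490 and 6724 CPM, and the globin-rich cells 3 and 13 had 8854 and 11218 CPM. Their part in the E14.5 level was not tested, but the log2 ratio of the summed members, E14.5 over E12.5, was -0.25 with all cells and -0.06 without the 5 cells.

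**Figure D1:**
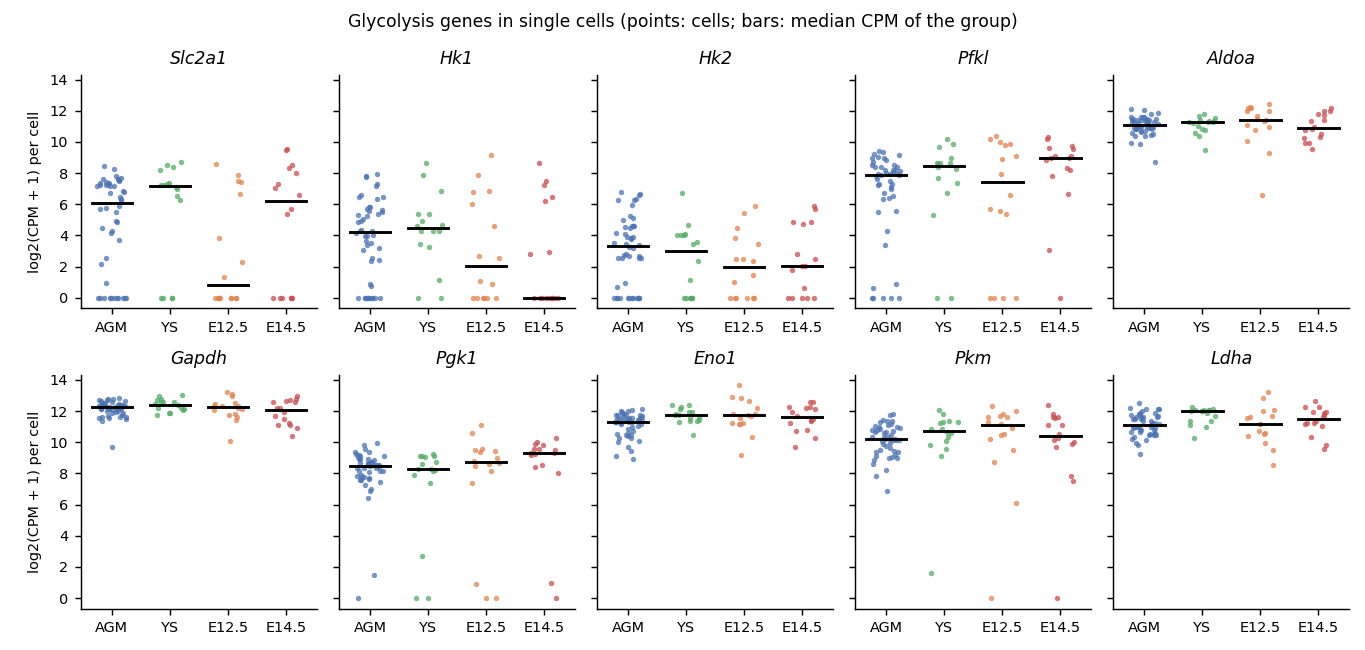
Level of each glycolysis gene in each of the 96 cells, as log2(CPM + 1), by group (AGM and yolk sac, YS, at E11.5; liver at E12.5 and E14.5). Points are cells and bars are the median CPM of the group; Slc2a1 and Hk2 show at least 4 cells at 0 in every group and Hk1 from 2 in yolk sac to 10 in AGM, while Gapdh, Aldoa, Eno1 and Ldha had reads in all cells.

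Levels of different genes were compared only after division by each gene's exonic length (CPM per kilobase, from GENCODE vM21 exons). This length counts the exons of every annotated transcript, so it is longer than the usual mRNA for some genes. In AGM cells the order ran from Gapdh at 1194 CPM per kilobase through Aldoa at 823, Ldha at 784, Eno1 at 479, Pkm at 287 and Pgk1 at 164.2 CPM per kilobase. Pfkl followed at 37.2, Slc2a1 at 26.04, Hk1 at 5.33 and Hk2 at 3.32 CPM per kilobase. The order was the same in the other 3 groups except that Ldha stood above Aldoa in yolk sac and E14.5 liver cells. The transporter and the genes of the early, regulated steps were thus read far less than those of the later steps in all 4 groups.

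Slc2a1 encodes GLUT1, the basal glucose transporter of blood cells (chromosome 4, 119108711 to 119137983, plus strand). Its pooled level was 91.3 CPM in AGM and 162.6 CPM in yolk sac cells, against 84.8 CPM in E12.5 and 164.7 CPM in E14.5 liver cells. Of the cells, 37 of 48 in AGM, 12 of 16 in yolk sac, 8 of 16 in E12.5 and 10 of 16 in E14.5 liver had a read of it. Its level spread widely from cell to cell, with single cells between 0 and 347 CPM in AGM (median 66.9) and between 0 and 410 CPM in yolk sac (median 142.2). At E12.5 the median cell had 0.79 CPM and the highest, cell 13, had 379 CPM. At E14.5 the median was 73.8 CPM and the highest cells were the globin-rich cells 16 and 3, with 747 and 728 CPM.

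Slc2a1 did not reach 2-fold between any of these pooled groups. The log2 ratio was 0.83 for yolk sac over AGM (1.77-fold), and 12 of 16 yolk sac cells were above the AGM median. It was -0.11 for E12.5 liver over AGM and 0.95 for E14.5 over E12.5 liver. Cell 13 held 41.9% of the E12.5 reads of Slc2a1, and without it the E12.5 level was 54.4 CPM in place of 84.8 CPM. Leaving out any 1 of 10 liver cells took the ratio between the liver stages past 2-fold: E12.5 cells 3, 5, 13 and 16 and E14.5 cells 8 to 12 and 15. The ratio reached 1.58 without E12.5 cell 13 and fell to 0.66 without E14.5 cell 16. Without the 5 globin-rich cells it was 0.10, and the E14.5 level was 92.3 CPM in place of 164.7 CPM.

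Hexokinases phosphorylate glucose on entry. Hk1, the housekeeping form (chromosome 10, 62268855 to 62379908, minus strand), had pooled levels of 45.5 CPM in AGM and 62.3 CPM in yolk sac cells, against 64.5 CPM in E12.5 and 66.3 CPM in E14.5 liver cells. The pooled levels hid a fall in the number of cells with a read, from 38 of 48 AGM and 14 of 16 yolk sac cells to 10 of 16 at E12.5 and 7 of 16 at E14.5. Median cells had 17.8, 21.1, 3.07 and 0 CPM in the same order. The median number of genes with a read was also lower in liver cells, 4036 at E12.5 and 4839 at E14.5, against 5522.5 in AGM and 5349.5 in yolk sac cells. Its part in the fall was not tested. Cell 12 held 47.2% of the E14.5 reads of Hk1, and without it the E14.5 level was 38.04 CPM. The log2 ratios were 0.45 for yolk sac over AGM, 0.49 for E12.5 liver over AGM and 0.04 for E14.5 over E12.5 liver. Without yolk sac cell 10 the first was -0.05, and without E12.5 cell 12 the second was 0.05. Leaving out single liver cells moved the last between -0.75 and 0.48, so its direction rested on single cells.

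Hk2, the inducible hexokinase (chromosome 6, 82725025 to 82774454, minus strand), was the lowest of the 10 genes per length. Pooled levels were 19.8 CPM in AGM and 13.4 CPM in yolk sac cells, against 10.8 CPM in E12.5 and 12.97 CPM in E14.5 liver cells. Single cells ran from 0 CPM to 108 CPM in AGM (median 8.93), 104 CPM in yolk sac (median 6.93), 58.9 CPM in E12.5 liver (median 2.93) and 57.9 CPM in E14.5 liver (median 3.13). AGM cells had the highest pooled level and the highest median of Hk2, and the ranges of the groups overlapped. The log2 ratios were -0.53 for yolk sac over AGM, -0.82 for E12.5 liver over AGM and 0.24 for E14.5 over E12.5 liver. The first was -1.20 without yolk sac cell 9, which held 43.3% of the reads. Cell 13 held 51.0% of the E12.5 reads, and without it the other two were -1.60 and 1.03. The yolk sac level without its cell 9 was 8.07 CPM, and the E12.5 level without cell 13 was 5.85 CPM.

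As a share of Hk1 and Hk2 reads together, Hk2 made up 30.4% in AGM cells (exact binomial interval 28.9 to 31.8%). It made up 17.8% in yolk sac cells, and 14.4 and 16.4% in liver cells of E12.5 and E14.5. When cells were left out singly, the AGM share stayed between 27.9 and 33.4%, and the other shares moved between 11.1 and 24.4%, between 7.60 and 19.5% and between 11.9 and 27.02%. The mean of each cell's own share gave another order, with 58.4% ± 45.8 (SD, 13 cells) at E14.5 and 41.7% ± 35.9 (SD, 44 cells) in AGM, so the pooled order did not hold cell by cell.

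Pfkl, the liver-type phosphofructokinase of the committing step (chromosome 10, 77986947 to 78010083, minus strand), was the only member past 2-fold in any comparison. Its pooled level was 248 CPM in AGM and 395 CPM in yolk sac cells, against 504 CPM in E12.5 and 536 CPM in E14.5 liver cells. Values of single cells started at 0 CPM and reached 681 CPM in AGM (median 233.6), 1155 CPM in yolk sac (median 356), 1348 CPM in E12.5 liver (median 171.98) and 1250 CPM in E14.5 liver (median 491). At E12.5 the cells fell far apart: 4 had no read, and the upper quartile was 915 CPM. The log2 ratio of E12.5 liver over AGM was 1.02 (2.03-fold), yet 8 of 16 E12.5 cells lay above the AGM median and the ratio of the cells' medians was -0.44. Yolk sac over AGM gave 0.67 and E14.5 over E12.5 liver 0.09.

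The 2-fold call for Pfkl was lost when any 1 of 16 cells was left out, with values from 0.75 to just under 1. These were E12.5 cells 1, 3, 5, 13 and 14 and AGM cells 1, 3, 29, 30, 33, 39, 42, 43, 45, 46 and 47. The value of 0.75 was the one without E12.5 cell 13, and the highest value, without E12.5 cell 2, was 1.16. Pfkl supplied 79.0% of the reads of the 3 phosphofructokinase genes in AGM cells, 91.2% in yolk sac cells, and 86.8 and 80.8% in liver cells of E12.5 and E14.5. Leaving out single cells moved the E14.5 share between 77.4 and 89.3%, so it did not stand clear of the AGM share.

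**Figure D2:**
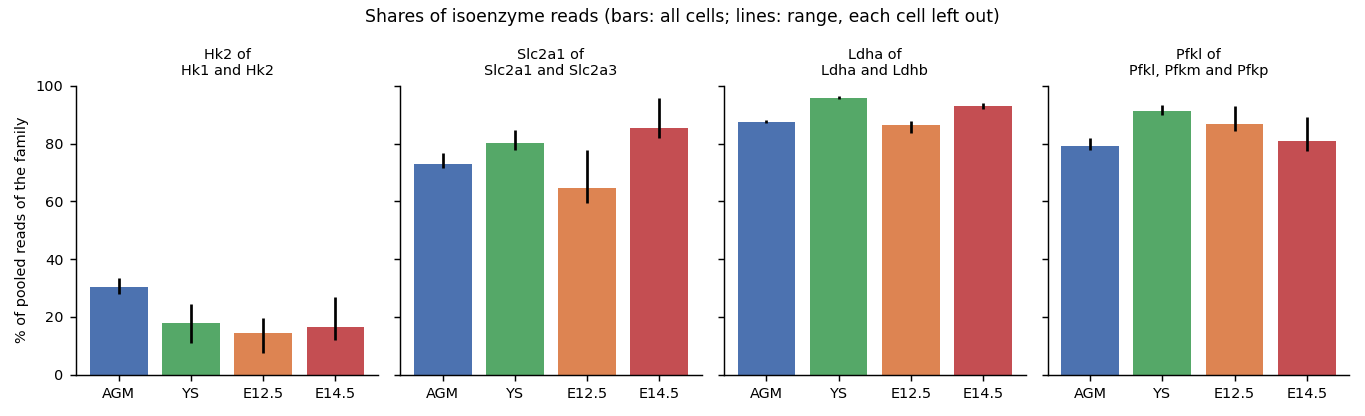
Share of each member in the pooled reads of its isoenzyme family, in percent, by group (YS, yolk sac). Bars are all cells and lines the range when cells are left out singly; the Hk2 share was highest in AGM cells (30.4%) and the Ldha share in yolk sac cells (95.8%).

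Aldoa, the main aldolase, splits fructose 1,6-bisphosphate (chromosome 7, 126795234 to 126800751, minus strand). It had reads in all 96 cells and pooled levels of 2396 CPM in AGM and 2352 CPM in yolk sac cells, against 2964 CPM in E12.5 and 2299 CPM in E14.5 liver cells. Single cells ran from 420 to 4527 CPM in AGM (median 2192), from 729 to 3490 CPM in yolk sac (median 2514), from 97.3 to 5495 CPM in E12.5 liver (median 2775) and from 739 to 4734 CPM in E14.5 liver (median 1916). The log2 ratios were -0.03 for yolk sac over AGM, 0.31 for E12.5 liver over AGM and -0.37 for E14.5 over E12.5 liver. Aldoa thus stood at nearly the same pooled level in both E11.5 groups, and the first ratio was 0.03 without yolk sac cell 13. The highest E12.5 value was that of cell 8, the cell with macrophage markers.

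Gapdh makes the first NADH of the pathway (chromosome 6, 125161715 to 125166467, minus strand) and supplied 27.4 to 33.5% of the summed reads of the 10 genes in each group. Its pooled levels were 4934 CPM in AGM and 5753 CPM in yolk sac cells, against 5639 CPM in E12.5 and 4700 CPM in E14.5 liver cells. Single cells ran from 845 to 7213 CPM in AGM (median 4820), from 3474 to 8545 CPM in yolk sac (median 5447), from 1081 to 9706 CPM in E12.5 liver (median 4851) and from 1341 to 8145 CPM in E14.5 liver (median 4334). With all cells counted, Gapdh varied least of the 10 genes between cells in each group, with a coefficient of variation of 0.276 in AGM and 0.275 in yolk sac cells, and 0.44 and 0.49 in the liver. Its log2 ratios were 0.22, 0.19 and -0.26 for yolk sac over AGM, E12.5 liver over AGM and E14.5 over E12.5 liver, and 9 of 16 yolk sac cells were above the AGM median.

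Pgk1, the first ATP-yielding kinase of the pathway (chromosome X, 106187100 to 106203699, plus strand), separated the E11.5 groups from the liver groups in pooled level. That level was 369 CPM in AGM and 342 CPM in yolk sac cells, against 688 CPM in E12.5 and 669 CPM in E14.5 liver cells. Values of single cells started at 0 CPM and reached 989 CPM in AGM (median 363), 596 CPM in yolk sac (median 308), 2204 CPM in E12.5 liver (median 425) and 1219 CPM in E14.5 liver (median 631). The log2 ratio of E12.5 liver over AGM was 0.90, and 10 of 16 E12.5 cells were above the AGM median. Cell 13 held 29.95% of the E12.5 reads, and without it the ratio was 0.53. With all cells, the difference of the cells' mean log2(CPM + 1) went the other way, at -0.62 for E12.5 liver over AGM. The ratio was -0.11 for yolk sac over AGM and -0.04 for E14.5 over E12.5 liver, the latter 0.33 without E12.5 cell 13. The Pgk1 gene lies on the X chromosome, and the labels do not give the sex of the embryos.

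Eno1, the enolase of most tissues (chromosome 4, 150236721 to 150248879, plus strand), had pooled levels of 2574 CPM in AGM and 3633 CPM in yolk sac cells, against 4628 CPM in E12.5 and 3472 CPM in E14.5 liver cells. Single cells ran from 495 to 4505 CPM in AGM (median 2564), from 1419 to 5340 CPM in yolk sac (median 3500), from 590 to 12787 CPM in E12.5 liver (median 3420) and from 844 to 6227 CPM in E14.5 liver (median 3092). The yolk sac shift ran through most cells: 14 of 16 lay above the AGM median, with a log2 ratio of 0.50 that stayed between 0.45 and 0.53 with each cell left out. The ratio of E12.5 liver over AGM was 0.85, and 0.56 without cell 13, the source of 25.8% of the E12.5 reads. E14.5 over E12.5 liver gave -0.41.

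Pkm, the pyruvate kinase gene (chromosome 9, 59656368 to 59679375, plus strand), was counted as a whole, so its M1 and M2 splice forms were not told apart. Pooled levels were 1436 CPM in AGM and 1930 CPM in yolk sac cells, against 2451 CPM in E12.5 and 2076 CPM in E14.5 liver cells. The single-cell range was 117 to 3578 CPM in AGM (median 1188), from 2.04 to 4352 CPM in yolk sac (median 1718), from 0 to 5055 CPM in E12.5 liver (median 2161) and from 0 to 5456 CPM in E14.5 liver (median 1369). At E12.5, 12 of 16 cells lay above the AGM median, the highest such count of the 10 genes there. The log2 ratios were 0.43, 0.77 and -0.24 for yolk sac over AGM, E12.5 liver over AGM and E14.5 over E12.5 liver. Without the globin-rich cells the last was -0.009 for Pkm, and it also lay nearer 0 for Aldoa (-0.16), Gapdh (-0.06) and Eno1 (-0.21).

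Ldha makes lactate from pyruvate (chromosome 7, 46841475 to 46855627, plus strand), and its pooled level was 2594 CPM in AGM and 3651 CPM in yolk sac cells, against 3341 CPM in E12.5 and 3176 CPM in E14.5 liver cells. The single-cell range was 601 to 5756 CPM in AGM (median 2224), from 1243 to 4993 CPM in yolk sac (median 4073), from 366 to 9528 CPM in E12.5 liver (median 2340) and from 753 to 6383 CPM in E14.5 liver (median 2865). Yolk sac cells were high as a group, with 14 of 16 above the AGM median and a log2 ratio of 0.49 (0.45 to 0.55 with each cell left out). For E12.5 liver over AGM the ratio was 0.37 with all cells and 0.06 without cell 13, the source of 26.7% of the E12.5 reads. E14.5 over E12.5 liver gave -0.07.

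Ldha shares its reaction with Ldhb, the form known for favouring pyruvate over lactate. Ldha made up 87.6% of the reads of both genes in AGM cells, 95.8% in yolk sac cells, and 86.5 and 92.8% in liver cells of E12.5 and E14.5. When cells were left out singly, the yolk sac share stayed between 95.5 and 96.6% and the AGM share between 87.2 and 88.1%, so these ranges did not meet. The shift came from both genes, since pooled Ldhb fell past the 2-fold line between them, from 368 CPM in AGM to 160 CPM in yolk sac cells (log2 ratio -1.20, between -1.51 and -1.09 with each cell left out). In the liver Ldhb went from 522 CPM (E12.5) to 245 CPM (E14.5), a ratio of -1.09 that was -0.96 without E14.5 cell 11.

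Across the members, 7 of 10 were higher in yolk sac than in AGM cells, where 38.2% of the 15239 genes with at least 30 reads were higher. Among the 4817 genes that also had a read in at least 50% of all cells, as every member had, 49.5% were higher. Of the members 0 were past 2-fold in either direction, beside 29.6% of all genes (1312 higher and 3202 lower) and 8.18% of the 4817 genes (134 higher and 260 lower). The median log2 ratio of the members was 0.44, against -0.20 for all genes and -0.004 for the 4817 genes. The members' shift was thus positive and small. Other lists moved in the same comparison. Of 14 endothelial markers 0 were higher and 8 were past 2-fold lower (median -1.23), and their summed level ran from 312 to 12740 CPM in AGM and from 105 to 2637 CPM in yolk sac cells, with none at 0 in either group. Of 24 proliferation genes 23 were higher, 3 past 2-fold (median 0.47), and their sum ran from 1105 to 11801 CPM in AGM and from 2592 to 11197 CPM in yolk sac cells. Of 5 hepatocyte markers with at least 30 reads, 4 were past 2-fold higher, at sums of at most 293 CPM in AGM and 826 CPM in yolk sac cells. The part of these lists in the members' ratio was not tested.

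Between E12.5 liver and AGM cells, 8 of 10 members were higher in pooled level, beside 40.5% of all genes and 48.1% of the 4817 genes. Pfkl alone was past 2-fold, on the higher side, against 41.7% of all genes in either direction (2384 higher and 3967 lower) and 17.4% of the 4817 genes (343 higher and 497 lower). The members' median log2 ratio was 0.43, against -0.20 for all genes and -0.03 for the 4817 genes. That median was 0.04 when the ratio was taken between the cells' medians, with Slc2a1, Hk1 and Hk2 past 2-fold lower, so the pooled and the median level differed. The difference of the cells' mean log2(CPM + 1) was below 0 for Slc2a1 (-1.94), Hk2 (-0.99), Hk1 (-0.79) and Pgk1 (-0.62). It was also below 0 for Pfkl (-0.39), Pkm (-0.11) and Ldha (-0.04). Above 0 were Eno1 (0.60), Aldoa (0.05) and Gapdh (0.004), so most members were not higher by this measure. In the same comparison 11 of 14 endothelial markers were lower, 8 of them past 2-fold, and their sum ran from 7.99 to 3196 CPM in E12.5 cells, with Kdr at 0. Of 16 erythroid markers 9 were past 2-fold higher and 1 lower (7 and 2 without E12.5 cell 8), with sums of at most 653 CPM in AGM and 11797 CPM in E12.5 cells. All 8 macrophage markers with at least 30 reads were higher, but 4 of 8 without E12.5 cell 8. Of 24 proliferation genes 15 were higher, with a median of 0.39. Of 8 mesenchymal markers 5 were past 2-fold lower, at sums of at most 670 CPM in AGM and 448 CPM in E12.5 cells. The part of these lists in the members' ratio was not tested, but without E12.5 cell 8 the members' median was 0.44. This comparison and that of yolk sac share the AGM cells.

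Between E14.5 and E12.5 liver cells, 4 of 10 members were higher, beside 40.8% of all genes and 46.2% of the 4817 genes. Past 2-fold in either direction were 0 members, against 36.9% of all genes (2844 higher and 2776 lower) and 17.9% of the 4817 genes (449 higher and 412 lower). The members' median log2 ratio was -0.06, against 0 for all genes and -0.07 for the 4817 genes, so they moved like the rest. Without the 5 cells with over 1% globin reads, 6 of 10 were higher and the median was 0.09. Of the 16 erythroid markers 14 were past 2-fold higher and 2 lower with all cells, and 2 higher and 7 lower without those 5. Of the 24 proliferation genes 18 were higher both with and without them (medians 0.64 and 0.61), and their sum ran from 12.0 to 14600 CPM at E12.5 and from 3014 to 17894 CPM at E14.5. The part of proliferation genes was not tested. This comparison shares the E12.5 cells with the one before.

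**Figure D3:**
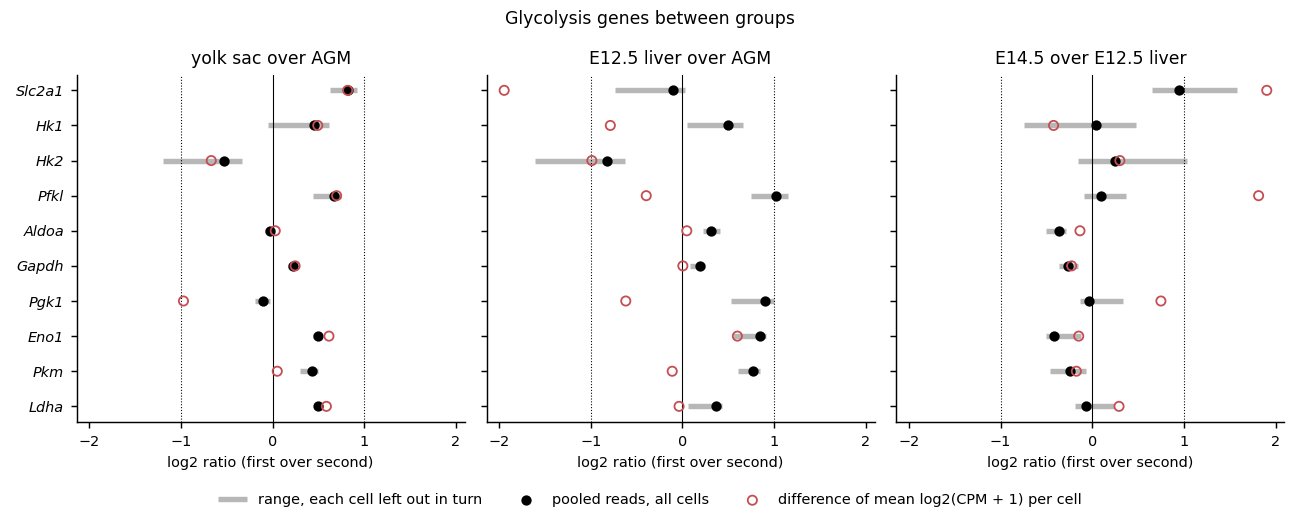
Log2 ratios of the 10 glycolysis genes in 3 comparisons. Black points are pooled CPM with 1 CPM added, and grey bars the range when cells are left out singly. Open circles are the difference of the cells' mean log2(CPM + 1), and dotted lines mark 2-fold. Only Pfkl in E12.5 liver over AGM (1.02) lies past 2-fold among the black points, and its open circle lies below 0. In that comparison the open circles of Slc2a1, Hk1, Hk2, Pgk1, Pkm and Ldha also lie below 0.

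The remaining steps of the pathway were read from a list of 19 other glycolysis genes, of which 15 had at least 30 reads. Gpi1, Tpi1 and Pgam1 are named because they catalyse the steps that the 10 genes leave out, outside the naming rule. Their log2 ratios for E12.5 liver over AGM were 0.63, 0.86 and 0.89, of the same sign as those of 8 members. For yolk sac over AGM they were 0.25, 0.12 and 0.71, and for E14.5 over E12.5 liver -0.35, -0.34 and -0.29. Of the 15, 1 was past 2-fold higher and 3 lower in yolk sac, 2 higher and 4 lower in E12.5 liver over AGM, and 5 higher and 2 lower in E14.5 over E12.5 liver. The shares of all genes past 2-fold in either direction were 29.6, 41.7 and 36.9%, so these counts lay near the background in the first and second comparison. Without the 5 globin-rich cells the last count was 3 higher and 4 lower.

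Pfkm, the muscle-type phosphofructokinase, had a log2 ratio of -3.25 for E12.5 liver over AGM, from 35.1 CPM in AGM cells to 2.78 CPM in E12.5 liver cells, all of it from 1 cell. Pfkp had a ratio of 1.23, which was 0.30 without E12.5 cell 7.

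Among regulators of the pathway, 5 of 7 listed genes had at least 30 reads. Pfkfb1 and Pfkfb3 make fructose 2,6-bisphosphate, the activator of phosphofructokinase, and Tigar breaks it down. Pfkfb1 was at 48.3 CPM in AGM and 2.52 CPM in E12.5 liver cells (log2 ratio -3.81). Tigar was at 8.49 CPM in AGM cells and had 0 reads at E12.5, where 0 reads allow up to 0.19 CPM. Pfkfb3 was at 7.48 CPM in AGM and 40.7 CPM in E12.5 liver cells, a ratio of 2.30 that was 0.52 without E12.5 cell 11. Its ratio of E14.5 over E12.5 liver, -1.52, was 0.26 without the same cell.

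Of the list of 17 genes for the fate of pyruvate and lactate, 16 had at least 30 reads, and 3 were past 2-fold higher and 3 lower in E12.5 liver over AGM, a share near the 41.7% of all genes past 2-fold in either direction. Pdk1, the kinase that holds pyruvate back from the mitochondrion by shutting pyruvate dehydrogenase, was at 12.9 CPM in AGM and 40.98 CPM in yolk sac cells, against 150 CPM in E12.5 and 130 CPM in E14.5 liver cells. Cells with a read were 18 of 48 in AGM, 9 of 16 in yolk sac, 11 of 16 in E12.5 and 14 of 16 in E14.5 liver, and median cells had 0, 1.75, 34.97 and 104 CPM. The log2 ratio of E12.5 liver over AGM was 3.44, between 3.002 and 3.70 with each cell left out. E12.5 cell 8 had the highest value, 2909 CPM, and without that cell the ratio was 3.04. Yolk sac over AGM gave 1.59, and 0.55 without yolk sac cell 10. In pooled level Pdk1 thus differed between AGM and liver cells by far more than any of the 10 members. This did not extend to the cells' medians, where Slc2a1 had a log2 ratio of -5.24 for E12.5 liver over AGM.

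Slc16a1, the lactate and pyruvate transporter MCT1, dipped at E12.5. Pooled levels were 51.2 CPM in AGM and 53.5 CPM in yolk sac cells, against 5.25 CPM in E12.5 and 64.6 CPM in E14.5 liver cells. Single E12.5 cells ran from 0 to 35.99 CPM, with reads in 6 of 16, while E14.5 cells reached 205.9 CPM, with reads in 9 of 16. The log2 ratio was -3.06 for E12.5 liver over AGM (between -3.74 and -2.90 with each cell left out) and 3.39 for E14.5 over E12.5 liver (between 3.16 and 4.07). Both ratios rest on the same E12.5 cells.

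From 20 genes of the HIF pathway and its targets, 19 had at least 30 reads. In E12.5 liver over AGM, 4 were past 2-fold higher and 3 lower, beside 41.7% of all genes past 2-fold in either direction, and the median log2 ratio of the list was 0.03. Lower were Egln1, Epas1 and P4ha2. Egln1, a prolyl hydroxylase that marks HIF for breakdown, was at 18.3 CPM in AGM and 4.09 CPM in E12.5 liver cells (ratio -1.92). Epas1, which encodes HIF-2 alpha, was at 10.4 CPM and P4ha2, a collagen prolyl hydroxylase, at 8.86 CPM in AGM cells, and both had 0 reads at E12.5. Both are named outside the naming rule, since they had reads in fewer than 25% of AGM cells. Higher were Ankrd37, Hif3a, Bnip3 and Kdm3a. Bnip3, a mitophagy receptor, was at 35.6 CPM in AGM and 150 CPM in E12.5 liver cells, with reads in 26 of 48 and 12 of 16 cells (ratio 2.04, between 1.82 and 2.17 with each cell left out). Kdm3a, a histone demethylase, was at 24.7 and 94.8 CPM (ratio 1.90). Ankrd37 was at 5.18 and 89.5 CPM (ratio 3.87, and 2.92 without E12.5 cell 13). Its exons overlap those of Lrp2bp by 349 bases on the other strand, and those of Bnip3 overlap Gm45507 by 504 bases, and the strand setting of the counts is not given in the sources used here. Hif1a itself had pooled levels of 30.8 CPM in AGM and 31.4 CPM at E12.5, and Vegfa was lower in yolk sac than in AGM cells (ratio -2.53).

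**Figure D4:**
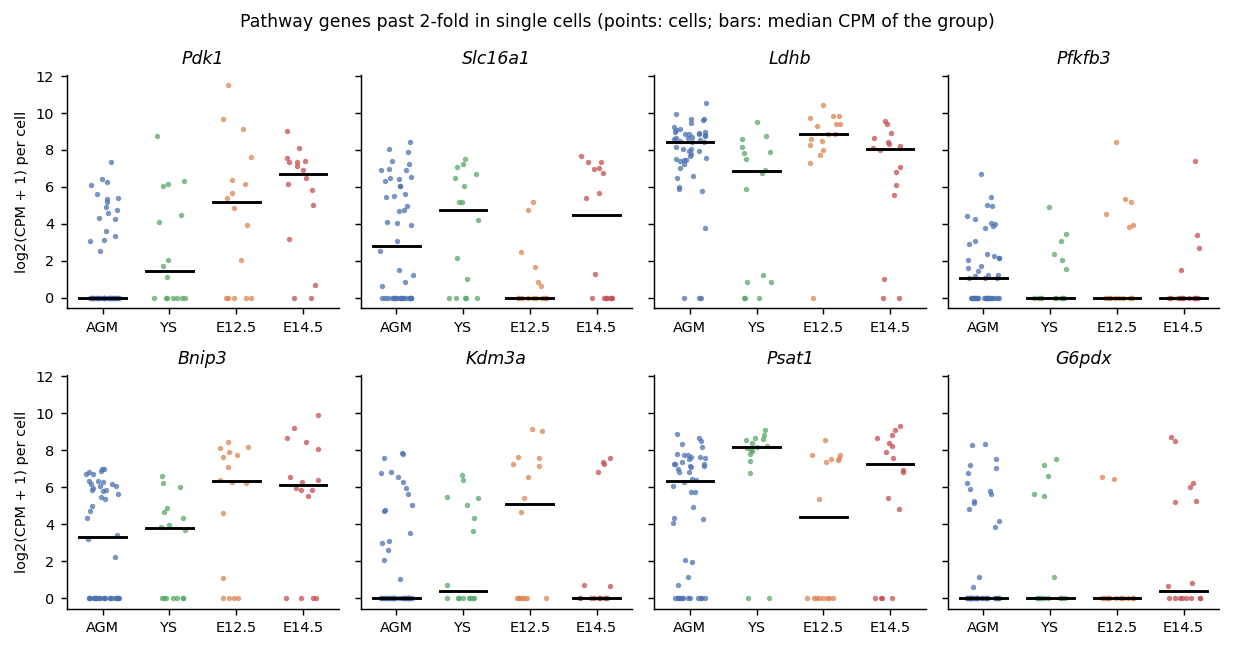
Levels of 8 other genes of central metabolism and HIF targets in each cell, as log2(CPM + 1), by group (YS, yolk sac). Points are cells and bars the median CPM; Pdk1 medians rise from 0 CPM in AGM to 104 CPM in E14.5 liver cells, and Slc16a1 has reads in 6 of 16 E12.5 cells.

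Within a group, the members were compared cell by cell with Spearman's rho. These values describe single cells of 1 sample whose depths differ, so they have no p-value. The summed level itself had a rho with a cell's reads of 0.47 in AGM and 0.59 in yolk sac cells, and of 0.47 and 0.40 in E12.5 and E14.5 liver cells. Among the 6 genes from Aldoa to Ldha, the median rho over 15 pairs was 0.39 in 48 AGM cells, 0.34 in 16 yolk sac cells, 0.49 in 16 E12.5 and 0.67 in 16 E14.5 liver cells. Among Slc2a1, Hk1, Hk2 and Pfkl, the median over 6 pairs was 0.02, 0.02, 0.17 and 0.01. By these medians the genes of the later steps ranked cells more alike than those of the early steps, although sparse counts alone can lower a rho. Single early pairs varied: they ran from -0.21 to 0.40 (Hk1 and Pfkl) in AGM and from -0.20 to 0.53 (Slc2a1 and Hk1) in yolk sac cells. In the liver they ran from -0.11 to 0.63 at E12.5 and from -0.19 to 0.54 at E14.5, both highest for Hk2 and Pfkl.

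The closest pairs were Eno1 and Pkm in AGM cells (rho 0.63), Gapdh and Pkm in yolk sac cells (0.75), Pgk1 and Pkm at E12.5 (0.86) and Aldoa and Eno1 at E14.5 (0.86). At E14.5 Hk1 ran against Ldha with a rho of -0.61, with reads of Hk1 in 7 of 16 cells. After each cell was thinned to 500000 reads, the median rho from Aldoa to Ldha came to 0.38 in 47 AGM and 0.31 in 16 yolk sac cells, and to 0.60 in 15 E12.5 and 0.67 in 16 E14.5 liver cells. Without the globin-rich cells it was 0.57 in 12 E14.5 cells and 0.61 in 15 E12.5 cells, and Aldoa and Eno1 had 0.74 at E14.5. Across cells of 1 group, the summed level had a rho with the summed HIF list of 0.03 in AGM and 0.47 in yolk sac cells, and of 0.40 and 0.60 in E12.5 and E14.5 liver cells. It had a rho of 0.07, 0.41, 0.30 and -0.44 with 24 proliferation genes. Without the globin-rich cells the rho with proliferation genes was 0.43 in 15 E12.5 and -0.24 in 12 E14.5 cells, and that with the HIF list 0.52 and 0.64.

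**Figure D5:**
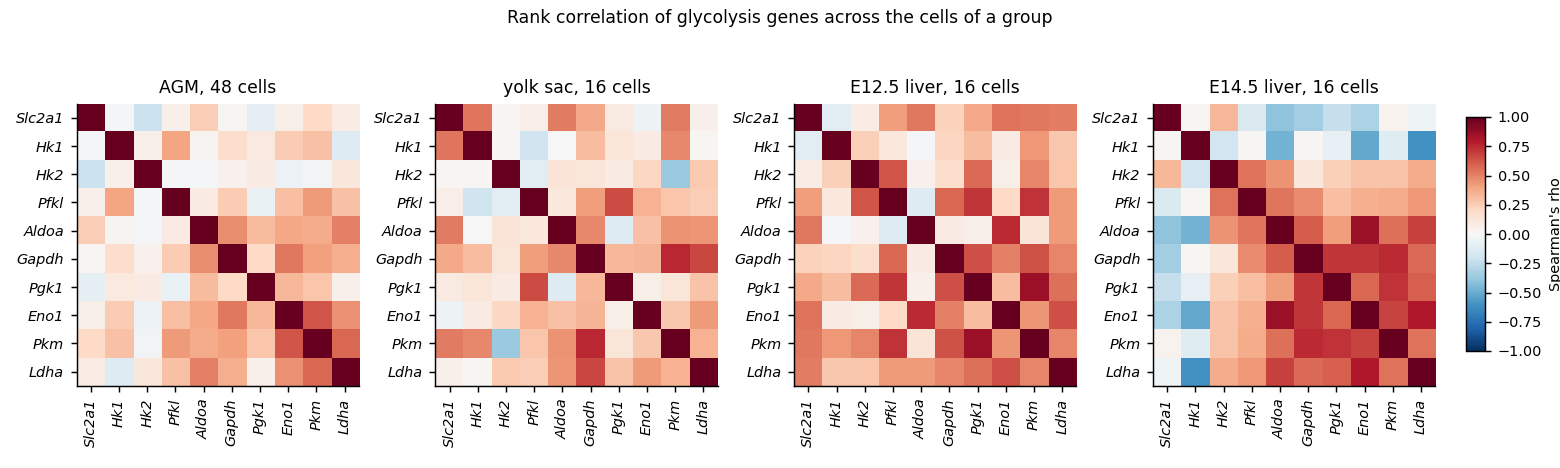
Spearman's rho of each pair of glycolysis genes across the cells of a group, from CPM per cell. Red squares cluster among Aldoa, Gapdh, Pgk1, Eno1, Pkm and Ldha, most of all at E14.5 (median 0.67 over 15 pairs), while in AGM cells most squares of Slc2a1, Hk1 and Hk2 are pale, apart from that of Hk1 with Pfkl (0.40).

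The genes whose level tracked the summed members most closely over the 48 AGM cells were Atp5b (rho 0.68), Hnrnpf (0.62), Cyc1 (0.60), Cct7 (0.60) and Hmga1 (0.59). They were taken from 5333 genes with a read in at least 50% of those cells, whose median rho was 0.02. After thinning, in 47 cells, the values were 0.67, 0.63, 0.58, 0.57 and 0.58. Atp5b encodes the catalytic subunit of the mitochondrial ATP synthase and Cyc1 a subunit of respiratory complex III. Gpi1 had a rho of 0.50, Pgam1 0.40, Tpi1 0.21 and Ldhb 0.03. In the 16 cells of each other group Atp5b had 0.47 (yolk sac), 0.39 (E12.5) and 0.11 (E14.5). In the same order Hnrnpf had 0.82, 0.16 and 0.35, and Cyc1 had 0.24, 0.42 and 0.35. Cct7 had 0.41, 0.33 and 0.33, and Hmga1 had 0.71, -0.33 and 0.41. These genes were picked for their values in AGM cells, so lower values in other groups cannot show that the likeness was weaker there.

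Gene copies and overlaps bear on these counts. Several members have processed copies in the genome, and how reads that fit more than 1 copy were counted is not given in the sources used here. Eno1b, a near-identical copy of Eno1, held 0.0407% of the reads of both genes over all cells. Exons of Gapdh overlap Iffo1 by 68 bases, those of Hk1 overlap Hk1os, those of Slc2a1 overlap Gm12868 by 105 bases and those of Aldoa overlap Fam57b by 25 bases, all on the other strand. Exons of Pkm overlap Gm49759 by 767 bases on the same strand. For Hk2, Pfkl, Pgk1, Eno1 and Ldha no exon overlap was found.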

How the data were processed

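Raw read counts per gene, whole numbers in 1 table with a column per cell, were deposited by the authors. Per the submitters' processing notes, FastQC, Trimmomatic 0.36, STAR and HTSeq were used with mm10; their roles, settings and annotation are not given in the sources used here. Per the labels' protocols, libraries were tagged by a transposome and had 12 PCR cycles.

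All 96 columns were matched by name, and 0 were left unmapped. The table held 19949 rows, and 113 rows with repeated symbols were summed into their symbol. Cells needed 1000 genes, which removed 0. Counts were pooled per group, scaled to CPM and compared as log2 ratios with 1 CPM added, which understates changes of low genes. The main comparisons had no test, since each group is 1 sample. Values of 2 further genes are not reported here. The share of all genes past 2-fold is given over both directions, with each direction as a number of genes. Named genes were the members and, from each other list, at most 6 genes past 2-fold per comparison with at least 30 reads and reads in at least 25% of the higher group's cells. The 5 genes most like the summed members over AGM cells were also named. Members and lists were chosen with earlier results of these data known. Coordinates and exons came from GENCODE vM21 (GRCm38), and promoter sequences from RefSeq (GRCm38.p6), with all 10 members matched. Python 3.11.15, numpy 2.4.6, pandas 2.3.3 and scipy 1.17.1 were used, and the calculation was tested on simulated data. The exclusion of E12.5 liver cell 8 alone, and the values without the globin-rich cells beside single genes and correlations, were added after seeing the data. Thinning to 500000 reads left out 1 AGM cell and 1 E12.5 cell.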

Additional observations from a re-analysis of the deposited data

How the results depend on the processing

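Across settings other than leaving out each cell in turn, the direction of a member's ratio was kept in 96 of 100 combinations of member and setting for yolk sac over AGM, 97 of 100 for E12.5 liver over AGM and 88 of 100 for E14.5 over E12.5 liver. Not all of these settings were separate checks. A minimum of 2000 genes, no cells over 1% globin and no E12.5 cell 8 left the yolk sac comparison unchanged by design. For E12.5 liver over AGM, each of those settings left out E12.5 cell 8 alone. With the median of each cell's CPM the members' median log2 ratio was 0.34 for yolk sac and 0.041 for E12.5 liver over AGM. With the same setting, 1 member was past 2-fold in yolk sac, 3 in E12.5 liver over AGM and 3 between the liver stages, and Pfkl turned to -0.44 in E12.5 liver over AGM. Averaging the CPM over cells, the E12.5 median was 0.49, with 0 members past 2-fold, and 1 member passed between the liver stages. Median-of-ratios scaling gave 0.53 for yolk sac. Thinned reads gave -0.10 between the liver stages with 1 member past 2-fold, and 0 members past it for E12.5 liver over AGM, as did 10 CPM added. A total without globin and mitochondrial genes gave -0.019 between the liver stages, and leaving out cells over 1% globin gave 0.093.

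When single cells were left out singly, the members' median lay between 0.29 and 0.50 for yolk sac over AGM, between 0.22 and 0.53 for E12.5 liver over AGM and between -0.17 and 0.080 for E14.5 over E12.5 liver. The lowest of these were without yolk sac cell 10, E12.5 cell 11 and E14.5 cell 1, and the last was positive without E12.5 cell 13. Members past 2-fold numbered 0 to 1, 0 to 1 and 0 to 2. Leaving out E12.5 cell 8 changed none of these counts. No paired analysis was possible because each cell is a separate well and a shared cell number across groups names no shared animal or batch, and no test was run. Depth limits the sparse genes most: a group with 0 reads of a gene in the E12.5 cells allows up to 0.19 CPM. Differences between embryos are not measured here.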

Other observations

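Neighbouring pathways of the 10 genes are given as values. Serine synthesis branches from glycolysis at 3-phosphoglycerate. Of that list, 6 of 6 genes were higher in yolk sac than in AGM cells, 2 of them past 2-fold. Of all genes with at least 30 reads, 38.2% were higher and 29.6% past 2-fold in either direction. Among the 4817 genes that also had a read in at least 50% of all cells, these shares were 49.5 and 8.18%. Psat1, the aminotransferase, was at 106 CPM in AGM and 276 CPM in yolk sac cells (log2 ratio 1.38, between 1.31 and 1.47 with each cell left out), with reads in 36 of 48 and 14 of 16 cells. Psph, the last enzyme, was at 45.02 and 108 CPM (1.24, and 0.72 without yolk sac cell 8). Psph exons overlap those of Cct6a by 452 bases on the other strand.

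In the pentose phosphate pathway, 0 of 7 genes were higher in E12.5 liver than in AGM cells and 6 of 7 were higher in E14.5 than in E12.5 liver, which share the E12.5 cells. Of all genes 40.5 and 40.8% were higher, and of the 4817 genes 48.1 and 46.2%. Without the 5 globin-rich cells the counts were 1 of 7 and 7 of 7. G6pdx, its entry enzyme, was at 38.5 CPM in AGM, 12.8 CPM in E12.5 and 66.9 CPM in E14.5 liver, and was read in 2 of 16 E12.5 cells. In the TCA cycle, 15 of 18 genes were higher in yolk sac than in AGM cells, 1 past 2-fold. Beside them stand the same 38.2 and 29.6% of all genes, and 49.5 and 8.18% of the 4817 genes. The gene past 2-fold was Fh1, fumarase, which rose from 184.9 to 375 CPM, a ratio of 1.02 that was 0.73 without yolk sac cell 8.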
